A study of Mus musculus with 60 samples.

Results

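The response of the ventral hippocampus to Handling was read from the deposited table that sets ventral Handling libraries against ventral Homecage libraries. All 13784 genes of that table were taken as members, out of 13986 genes held in the 10 tables of the series. The mice were wild type C57BL/6 at postnatal day 105, and each group had 5 libraries of poly(A)-enriched RNA, as the labels state. Hippocampus was taken 45 min after the treatment in the stress groups. The full series has 60 libraries in 12 groups: whole, dorsal and ventral hippocampus from Homecage, Handling, Restraint and Swim mice. The labels do not say how the mice were handled, or whether dorsal and ventral libraries of the same number came from the same mouse.

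The tables give the mean estimated count of each group and no value of a single library. The spread between libraries can enter only through the authors' own test. Unless another source is named, the ventral means, folds, log2 fold changes and adjusted p-values below are those of the authors' deposited table. A gene was called where its deposited adjusted p was under 0.05. The implied standard error of a log2 fold change is its size divided by the normal quantile of the deposited p. The means of the ventral groups summed to 25.0M estimated counts (M, mega) in Homecage and 24.2M in Handling, within a range of 19.9M to 25.0M over the 12 groups. The series record gives 5 mice per condition. The test behind the p-values was not given, so how they measure the spread between these libraries is not known. The regional label was checked in Homecage mice, where 38.4% of 13754 genes differed between the poles, 18.4% higher and 20% lower in ventral hippocampus. Of 11 ventral markers, 9 were higher in ventral than in dorsal Homecage and 1, Trpc6, was lower. Of 8 dorsal markers, 6 were lower and 2, Nov and Dio3, were higher.

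Immediate early genes are transcribed within minutes of strong synaptic input, without new protein being made first, and their transcripts are short-lived. Many encode transcription factors, such as those of the Fos and Egr families, while others act at the synapse or switch off the kinase pathway that turned them on. Glucocorticoids released under stress act through nuclear receptors that are abundant in hippocampal neurons. The choroid plexus is a secretory epithelium inside the ventricles, next to the hippocampus; it makes cerebrospinal fluid and expresses transthyretin at a very high level.

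Handling was followed by more RNA for many genes and less for few. Of 13784 genes, 118 were called (0.856%), of which 112 were higher (0.813%) and 6 lower (0.0435%) after Handling, while 1004 had an unadjusted p under 0.05. The median log2 fold change of all genes was 0.0027. The called genes fell into 3 sets. There were 24 members of 3 lists of activity-dependent genes, namely immediate early transcription factors, activity-regulated effectors and MAP kinase phosphatases. Another 30 were choroid plexus markers (19) or tracking genes (11), picked by a rule on dorsal libraries that is given below. The remaining 64 belonged to neither. Of the called genes, 50 changed at least 2-fold (49 up, 1 down) and 47 changed less than 1.5-fold.

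**Figure D1:**
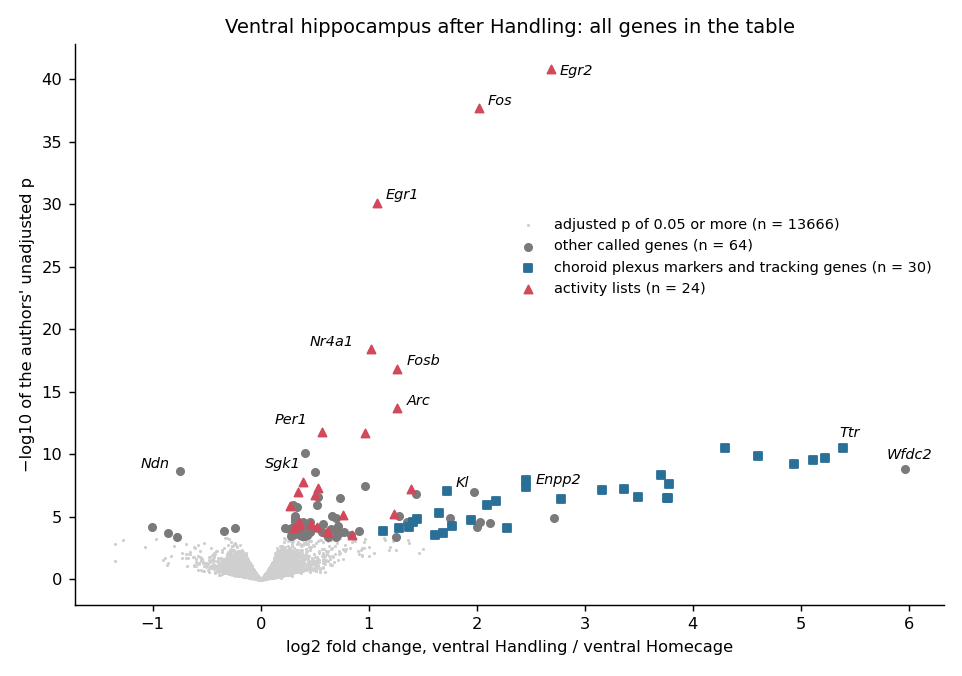
Log2 fold change after Handling (x axis) against the negative log10 of the deposited unadjusted p (y axis) for the 13784 genes, one point each. The lowest p-values belong to activity genes such as Egr2 and Fos, while the largest fold changes, up to a log2 value of 5.97, belong to choroid plexus genes and Wfdc2 with less extreme p-values.

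Immediate early transcription factors held the lowest p-values. Of 26 listed, 24 were measured, 13 rose, none fell, and the median log2 fold change was 0.57. Egr2, of the same zinc finger family as Egr1, had the lowest p of the table: its mean went from 22.4 in Homecage to 141 in Handling, 6.44-fold (log2 2.69, implied standard error 0.20, the authors' adjusted p = 2.3e-37). Fos, a subunit of the AP-1 factor and the standard marker of recently active neurons, went from 139 to 549, 4.05-fold (log2 2.02, implied standard error 0.16, the authors' adjusted p = 1.4e-34). Both rose to several times the Homecage level.

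Egr1, a zinc finger factor tied to synaptic plasticity, rose from 1606 to 3293 (log2 1.07, the authors' adjusted p = 3.4e-27). Its relatives Egr4 (89.8 to 233, log2 1.39, the authors' adjusted p = 3.2e-05) and Egr3 (546 to 765, log2 0.52, adjusted p = 0.0122) rose too, so that all members of the Egr family were called. Among other subunits of AP-1, Fosb rose from 141 to 333 (log2 1.26, the authors' adjusted p = 3.8e-14) and Junb from 352 to 819.8 (log2 1.24, adjusted p = 0.00179). Fosl2, another subunit, rose from 1836 to 2259.8 (log2 0.34, the authors' adjusted p = 4.7e-05). The orphan nuclear receptors Nr4a1 and Nr4a3 had log2 fold changes of 1.02 (the authors' adjusted p = 1.4e-15) and 0.39 (adjusted p = 1e-05).

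Npas4, a factor induced by calcium entry in neurons, rose less than most of these, from 197 to 297 (log2 0.62, the authors' adjusted p = 0.0243). Klf4 had a log2 fold change of 0.77 (the authors' adjusted p = 0.00202) and Ier2 one of 0.84 (adjusted p = 0.0351). The calls of Npas4 and Ier2 did not hold after correction for a GC trend, that is, when the lowess trend of log2 fold change over transcript GC content was taken off. Klf2 (log2 0.73, the authors' adjusted p = 0.0582) and Atf3 (12.2 to 23.2, log2 0.95, adjusted p = 0.0925) did not pass the threshold. Bdnf, the growth factor gene often used as an activity readout, had means of 742 and 768 (log2 0.09, the authors' adjusted p = 0.897).

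The promoters of the risen activity genes are shown because many held letters of the cyclic AMP response element (CRE), the site bound by CREB. RefSeq promoters on GRCm38.p6, from 250 bases before to 50 after a gene's start, matched 19 of the 24 called activity genes and 10574 genes of the table. Genes with several starts counted if any window held the motif, and both strands were searched. The short CRE motif TGACG was in 16 of the 19 (84.2%), against 34.5% of the matched genes of the table and 23.0% of 27025 genes with a promoter. The full CRE, TGACGTCA, which contains the short motif, was in 4 of the 19 (Arl4d, Btg2, Dusp1 and Errfi1; 21.1% against 3.54%). The CArG box, bound by serum response factor, was in Dusp5 and Egr2 (10.5% against 1.6%). No window held the AP-1 site (TGACTCA or TGAGTCA), which 4.46% of the table's genes held. Of the called choroid plexus and tracking genes, 21 of 30 matched, and the short motif was in 4 of them (19%). It was in 16 of 46 matched other called genes (34.8%). These counts describe letters in a window and were not tested. Below are the 250 bases before the start of 5 risen genes, 5′ to 3′ on the gene's own strand, in lower case with motifs in capitals. Fos has the short CRE motif in 2 places and a TATAAA, Nr4a1 has it in 4 and Npas4 in 2, Dusp1 has a full CRE, and Dusp5 has a pair of CArG boxes beside a short CRE motif written on the other strand (CGTCA).
Fos promoter, chr12:85473640-85473889, plus strand: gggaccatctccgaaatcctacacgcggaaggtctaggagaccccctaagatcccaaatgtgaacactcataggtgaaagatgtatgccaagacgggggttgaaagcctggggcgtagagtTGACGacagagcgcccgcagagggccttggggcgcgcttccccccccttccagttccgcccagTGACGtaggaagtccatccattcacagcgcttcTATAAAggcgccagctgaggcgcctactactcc
Nr4a1 promoter, chr15:101266596-101266845, plus strand: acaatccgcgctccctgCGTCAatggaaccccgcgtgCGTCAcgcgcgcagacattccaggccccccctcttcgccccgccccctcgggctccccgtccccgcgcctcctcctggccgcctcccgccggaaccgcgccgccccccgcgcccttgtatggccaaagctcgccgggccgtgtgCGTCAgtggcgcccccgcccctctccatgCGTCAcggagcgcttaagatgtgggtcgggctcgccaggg
Npas4 promoter, chr19:4989972-4990221, minus strand: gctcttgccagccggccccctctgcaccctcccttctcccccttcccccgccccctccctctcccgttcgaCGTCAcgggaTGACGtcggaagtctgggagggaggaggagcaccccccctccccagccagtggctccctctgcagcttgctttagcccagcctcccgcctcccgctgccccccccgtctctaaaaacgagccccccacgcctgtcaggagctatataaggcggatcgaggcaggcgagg
Dusp1 promoter, chr17:26508473-26508722, minus strand: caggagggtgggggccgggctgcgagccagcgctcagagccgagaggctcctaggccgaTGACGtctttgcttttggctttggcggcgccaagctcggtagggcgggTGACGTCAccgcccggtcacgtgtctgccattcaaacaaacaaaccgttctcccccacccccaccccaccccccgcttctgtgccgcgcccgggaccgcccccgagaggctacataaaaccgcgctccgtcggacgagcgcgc
Dusp5 promoter, chr19:53528895-53529144, plus strand: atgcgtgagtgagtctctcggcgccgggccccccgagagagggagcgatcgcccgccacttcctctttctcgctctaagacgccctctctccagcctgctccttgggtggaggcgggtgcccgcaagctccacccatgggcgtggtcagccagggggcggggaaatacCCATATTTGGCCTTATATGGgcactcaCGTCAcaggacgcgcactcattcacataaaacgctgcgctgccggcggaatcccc

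Effector genes, a list with genes that act at synapses or in signalling and with the clock repressor Per1, rose in fewer cases. Of 30 activity-regulated effectors, 7 rose, none fell, and the median log2 fold change was 0.31. Arc, which regulates AMPA receptor removal at synapses, rose from 1791 to 4225 (2.40-fold, log2 1.27, implied standard error 0.17, the authors' adjusted p = 4.9e-11). Sik1, a kinase that restrains CREB coactivators, rose from 231 to 438 (log2 0.96, the authors' adjusted p = 3.4e-09), and was the only one of 23 genes of CREB and activity signalling that was called. Homer1, a scaffold of the postsynaptic density with a short activity-induced form, rose from 2307 to 2715 (log2 0.28, the authors' adjusted p = 0.00046); the estimated counts do not separate its forms. It was the only called gene among 24 synaptic scaffolds and glutamate receptors.

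Tiparp, an ADP-ribosyltransferase, had a log2 fold change of 0.36 (the authors' adjusted p = 0.0098), and Btg2, an antiproliferative immediate early gene, also one of 0.36 (adjusted p = 0.00609). Arl4d, a small GTPase, had one of 0.62 (the authors' adjusted p = 0.0243), a call that did not hold after the GC trend was subtracted. Cyr61, a secreted matricellular protein, had means of 61.8 and 90.2 (log2 0.57, the authors' adjusted p = 0.0903).

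Feedback inhibitors of MAP kinase signalling rose in 4 of 15 measured cases, with a median log2 fold change of 0.11. Dusp1 went from 299.6 to 420.0 (log2 0.53, the authors' adjusted p = 2.8e-05), Dusp5 from 378 to 523 (log2 0.50, adjusted p = 8.2e-05), and Dusp6 from 978 to 1319 (log2 0.46, adjusted p = 0.00813). These phosphatases remove the activating phosphates of MAP kinases. Errfi1, an inhibitor of the EGF receptor, had a log2 fold change of 0.31 (the authors' adjusted p = 0.0136). The risen phosphatases changed by at most 1.44-fold, less than the transcription factors with the lowest p.

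**Figure D2:**
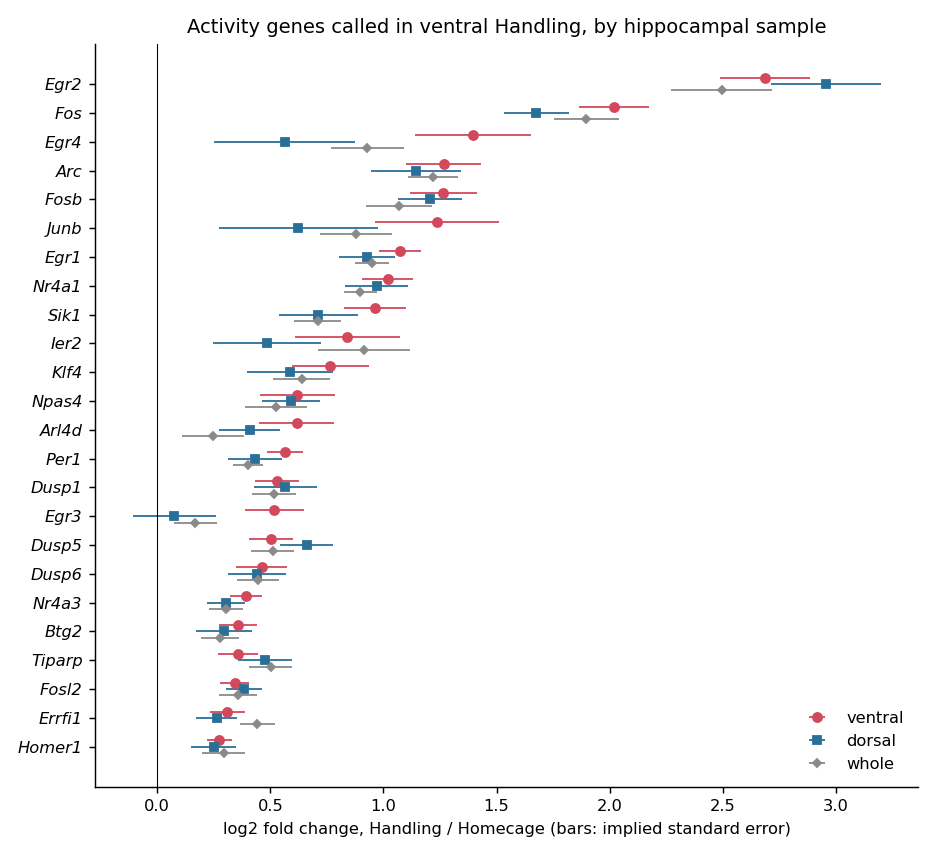
Log2 fold change of Handling over Homecage (x axis) for the 24 called activity genes (rows) in ventral, dorsal and whole hippocampus; bars are the implied standard error. The ventral values run from 0.28 for Homer1 to 2.69 for Egr2, and for Fos, Arc, Fosb, Egr1 and Nr4a1 the values of the 3 tissue samples lie close together.

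Glucocorticoid receptor targets rose in part. Of 28 measured, 5 rose and none fell, with a median log2 fold change of 0.21, and 3 of these 5 (Per1, Dusp1 and Errfi1) are also on the activity lists. Sgk1, a kinase that controls ion channels, rose from 1033 to 1436 (log2 0.50, the authors' adjusted p = 1.9e-06). Tsc22d3, which encodes the glucocorticoid-induced leucine zipper protein, rose from 1429 to 1737 (log2 0.32, the authors' adjusted p = 0.00249). Fkbp5, a co-chaperone that dampens the receptor, had means of 1667 and 1838 (log2 0.18, the authors' adjusted p = 0.595). Plin4, a lipid droplet protein, had means of 171.8 and 306.8 (log2 0.87, the authors' adjusted p = 0.0794).

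None of 13 measured corticosteroid receptors and regulators was called, and their median log2 fold change was 0.018. With 0.856% of all genes called, the lack of calls is not a result about this list. The glucocorticoid receptor gene Nr3c1 had means of 2283 and 2158 (log2 -0.04, the authors' adjusted p = 0.946). The mineralocorticoid receptor gene Nr3c2 had means of 3733 and 3633 (log2 -0.01, the authors' adjusted p = 0.995). Of 18 clock genes, only the repressors Per1 and Per2 were called. Per1 rose from 1866 to 2696 (log2 0.56, the authors' adjusted p = 3e-09) and Per2 from 1315 to 1702 (log2 0.41, adjusted p = 1.1e-07), while Per3 had a log2 fold change of 0.19 (adjusted p = 0.358).

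Of 23 genes of the heat shock and unfolded protein responses, 4 rose and none fell, with a median of 0.14, and 19 did not pass. The co-chaperone Dnajb1 rose from 1309 to 1547 (log2 0.28, the authors' adjusted p = 0.0173), and Manf, a secreted factor of endoplasmic reticulum stress, from 809 to 965 (log2 0.29, adjusted p = 0.0378). Hspb1, a small heat shock protein (log2 0.72, the authors' adjusted p = 0.0106), and Dnajb5 (log2 0.32, adjusted p = 0.0106) were called as deposited but not after the GC trend was subtracted. Hspa5, the main chaperone of the endoplasmic reticulum, had means of 7492 and 8731 (log2 0.26, the authors' adjusted p = 0.267). P4ha1 (1371 to 1675, log2 0.33, the authors' adjusted p = 0.00048) and P4ha2 (log2 0.34, adjusted p = 0.00564), subunits of the collagen prolyl hydroxylases, also rose.

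Apart from Wfdc2, which is on no list, the largest increases were those of choroid plexus genes. Of 20 listed symbols, 19 were measured, the other being Ecrg4, a later name of 1500015O10Rik, and all 19 rose, with log2 fold changes from 1.13 to 5.39 and a median of 3.49. Of these 19, 5 were held in this table alone, where a gene may enter through its high group and then has to differ, so the count is a description. The 9 markers held in all 10 tables had log2 fold changes from 1.13 to 5.39, with a median of 2.46. Summed over the 19, the level went from 67.8 to 1389 CPM, a gene's estimated count scaled to the same total in every group. Ttr alone made up 27.6 CPM of the Homecage sum and 1168 CPM of the Handling sum. Ttr, the thyroid hormone carrier transthyretin, went from 690.0 to 28299, 42.0-fold (log2 5.39, implied standard error 0.81, the authors' adjusted p = 4.6e-08). Its implied standard error was larger than that of Fos (0.16). In a bulk sample, more cells of a type and more RNA per cell cannot be told apart.

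Transporters and channels of the secretory epithelium were among these. Of 26 measured, 8 rose, with a median of 0.40, but 6 of these 8 are the choroid plexus markers already counted, and members held in few tables may have entered through their high group. Over the 21 members held in all 10 tables, a restriction chosen after the values were seen, 4 rose, with a median of 0.18. Slc4a5, a sodium bicarbonate cotransporter, went from 7.2 to 246 (log2 5.12, the authors' adjusted p = 3e-07). Kcne2, a potassium channel subunit, went from 5.2 to 156 (log2 4.94, the authors' adjusted p = 5.9e-07). The water channel Aqp1 went from 12.4 to 159.8 (log2 3.70, the authors' adjusted p = 3.1e-06), and the potassium channel Kcnj13 from 16.8 to 225 (log2 3.78, adjusted p = 1.5e-05). All of these had low Homecage means.

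Clic6, a chloride channel family member, went from 65.8 to 578 (log2 3.16, the authors' adjusted p = 3.4e-05), and the cation channel Trpv4 from 27.0 to 146 (log2 2.46, adjusted p = 8.1e-06). Slc4a2, an anion exchanger on no list, rose from 579 to 915 (log2 0.69, the authors' adjusted p = 0.0032). Cldn2, a tight junction protein that passes cations and water, went from 12 to 161 (log2 3.78, the authors' adjusted p = 0.00011). Tmem72, a membrane protein, went from 3.60 to 135 (log2 5.22, the authors' adjusted p = 2.3e-07).

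Of 21 genes for ligand carriers and hormone handling, 8 rose, with a median of 0.58; without choroid plexus markers and tracking genes, 1 of 14 rose, with a median of 0.13. Enpp2, the lysophospholipase autotaxin, went from 3383 to 17890.0 (log2 2.46, the authors' adjusted p = 2.6e-05). Kl, which encodes the FGF23 coreceptor alpha-klotho, rose from 459 to 1471 (log2 1.72, the authors' adjusted p = 4e-05). The prolactin receptor gene Prlr rose from 186 to 395 (log2 1.13, the authors' adjusted p = 0.0207), and Ace, angiotensin-converting enzyme, from 398 to 1047 (log2 1.45, adjusted p = 0.0035).

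Folr1, a folate receptor of this epithelium, went from 21 to 229.8 (log2 3.49, the authors' adjusted p = 0.00011). Otx2, the homeobox factor needed for choroid plexus formation, went from 14.8 to 101 (log2 2.78, the authors' adjusted p = 0.00015). F5, coagulation factor V, went from 32.2 to 614 (log2 4.30, the authors' adjusted p = 4.6e-08). Sostdc1, a secreted BMP and Wnt antagonist, went from 49.0 to 182 (log2 1.95, the authors' adjusted p = 0.00438).

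The same genes were read in all 12 groups in CPM, a scale that compares a gene between groups but not different genes. Ttr stood at 27.6 in ventral Homecage, 1168 in ventral Handling, 35.3 in ventral Restraint and 42.1 in ventral Swim. In dorsal hippocampus it stood at 40.5 in Homecage, 89.5 in Handling, 1229 in Restraint and 64.2 in Swim, and in whole hippocampus between 16.4 and 72.6. Ventral Handling and dorsal Restraint held the highest levels. Ttr was also called higher after Handling in whole hippocampus, at a lower level (16.4 to 72.6 CPM, log2 2.20, the authors' adjusted p = 0.0277), and F5 had a log2 fold change of 1.45 there (the authors' adjusted p = 0.180).

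Kl followed the same order, with 60.7 in ventral Handling and 69.4 in dorsal Restraint against 18.3 to 32.6 in the other groups. F5 stood at 25.3 and 24.0 in those 2 groups against 0.992 to 2.98 elsewhere. Enpp2 stood at 738 and 776 against 135 to 209.9. Whole hippocampus after Handling held Enpp2 at 159 and Kl at 25.0. Library values were not analysed here, so whether the 5 ventral Handling libraries shared the high level was not tested.

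**Figure D3:**
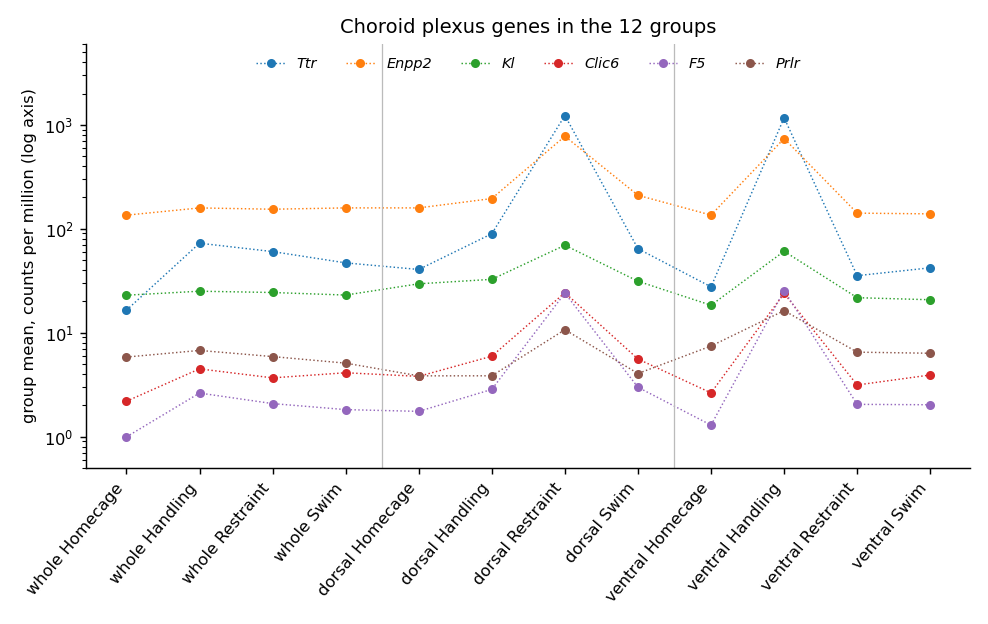
Group mean in CPM (log axis) of 6 choroid plexus genes in the 12 groups (x axis); dotted lines only join the points of a gene, and grey lines part the 3 tissue samples. Each gene is highest in ventral Handling and dorsal Restraint, as with Ttr at 1168 and 1229.

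A further rule picked 26 genes that were higher by at least 1 log2 unit in dorsal Restraint than in dorsal Swim. This contrast uses no ventral library and does not refer to the markers. Dorsal Restraint is the other group with a high Ttr level, so the rule is not independent of the values above. Apart from markers, 15 of the 26, the tracking genes, were in the ventral Handling table, and 11 of these 15 rose, with a median of 1.45 for all 15. They include Mfrp (18.1 to 432, log2 4.60, the authors' adjusted p = 1.4e-07), a membrane protein best known from retinal pigment epithelium, Lbp (66.0 to 219, log2 1.77, adjusted p = 0.00992), which binds bacterial lipopolysaccharide, and Sulf1 (274 to 639, log2 1.28, adjusted p = 0.0133), a heparan sulfate sulfatase. Slc13a4, a sulfate transporter found in choroid plexus and meninges, was among the 4 that were not called (205.6 to 280.6, log2 0.51, the authors' adjusted p = 0.881). Among the 11, Wdr86 (18.8 to 89.2) had no value in ventral Restraint or Swim, so it may have entered through its high group.

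Low values limit some of these folds. The smallest sum of the 2 means in the table was 32, and 30 genes were held in this table alone. Of these 30, 12 were called, all higher, and they include the markers Cldn2, Kcne2, Slc4a5, Steap1 and Tmem72. Wfdc2, a secreted protease inhibitor family member on no list, had the largest deposited log2 fold change, 5.97, but its Homecage mean was 0.398. Over the 5 libraries that is a sum of 2 estimated counts against 158 after Handling. Scaled by group totals, the ratio was 81.5, while the deposited fold was 62.5. The 95% counting interval of the ratio ran from 22.2 to 679 and leaves out the spread between mice.

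Matrix and basement membrane genes rose in 7 of 30 cases, with a median of 0.073. Choroid plexus genes moved with this list: Col8a1 is also a choroid plexus marker and Col8a2 was picked by the dorsal Restraint rule, and without them 5 of 28 rose, with a median of 0.051. Col4a4 and Col9a3 had log2 fold changes of 0.70 and 0.60 after dorsal Restraint and of -0.25 and -0.11 after dorsal Swim. That gap is under the minimum of the rule. Col4a3 was held in this table alone, with no dorsal Restraint value, and may have entered through its high group. Over the 27 members held in all tables, Col8a2 among them, 4 rose, with a median of 0.035. The part of choroid plexus in these values was not tested. The genes that rose include collagen IV chains of the alpha3 and alpha4 type, Col4a3 (13.6 to 55.4, log2 2.03, the authors' adjusted p = 0.00577) and Col4a4 (19.6 to 74.6, log2 1.98, adjusted p = 4.4e-05). Col9a3, a collagen IX chain, rose from 179 to 473 (log2 1.43, the authors' adjusted p = 7.1e-05), and the network collagens Col8a1 and Col8a2 had log2 fold changes of 2.18 (adjusted p = 0.0002) and 1.61 (adjusted p = 0.0353). The common vascular chains Col4a1 (log2 0.17, the authors' adjusted p = 0.524) and Col4a2 (log2 0.18, adjusted p = 0.719) did not pass. Lama5 and Hspg2, a laminin chain and perlecan, had log2 fold changes of 0.43 (the authors' adjusted p = 0.0389) and 0.37 (adjusted p = 0.0378). The calls of Lama5, Hspg2 and Col8a2 were lost after the GC trend was subtracted.

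Another 47 called genes, 42 higher and 5 lower, were on no list and were not picked by the dorsal Restraint rule. Of these, Fap, Krt18, Oca2, Prr32, Rbm47 and Wfdc2 had no dorsal Restraint or Swim value, so 6 of the 47 could not be judged by it. Some of the others had high levels in the same groups as the choroid plexus genes without reaching the minimum of the rule. Slc4a2 stood at 37.7 CPM in ventral Handling and 39.2 in dorsal Restraint, against 21.03 to 29.6 in the other groups. Elovl7, a fatty acid elongase, stood at 17.98 and 19.9 against 11.1 to 14.3; both were singled out after their values were seen. Tnfrsf25, the death receptor 3 gene, rose from 192 to 369.6 (log2 0.97, the authors' adjusted p = 2.2e-05). Arid5a, an RNA-binding regulator of cytokine transcripts, rose from 303 to 427 (log2 0.53, the authors' adjusted p = 0.00011). Tbc1d2, a Rab GTPase-activating protein, rose from 105 to 171 (log2 0.73, the authors' adjusted p = 0.00012), and Zkscan3, a zinc finger repressor of autophagy genes, from 1351 to 1613 (log2 0.30, adjusted p = 0.00037). Most of these changes were small next to those of Fos or Ttr.

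Dmpk, the myotonic dystrophy protein kinase gene, rose from 314 to 442 (log2 0.52, the authors' adjusted p = 0.00039). Fam46a, a poly(A) polymerase family member, rose from 145 to 224 (log2 0.66, the authors' adjusted p = 0.00248). Krt18, a keratin of simple epithelia, went from 14.0 to 60.2 (log2 2.12, the authors' adjusted p = 0.0065), and Oca2, a melanosome transporter, from 9.20 to 36.8 (log2 2.01, adjusted p = 0.0115). Krt18 and Oca2 were held in this table alone, so they may have entered through their high group. Ucp2, a mitochondrial carrier, had a log2 fold change of 0.57 (the authors' adjusted p = 0.00774) and Ezr, a linker of membrane and actin in epithelial microvilli, one of 0.32 (adjusted p = 0.00497). Gm28539, a predicted gene that can share reads with other loci, had one of 1.28 (the authors' adjusted p = 0.00235).

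Base composition and regional level moved with the 64 called genes outside the activity and choroid plexus sets, 7 of which had no dorsal value for the tracking rule. Fold change in the table followed GC content (Spearman's rho 0.43 across genes, which are not independent replicates), and the median GC content was 55.7% in the 64, 55.6% in the activity genes and 50.3% in the choroid plexus set, against 50.8% over all genes. With the GC trend subtracted, 41 of the 64 kept their call, as did 21 of 24 activity genes and 29 of 30 choroid plexus and tracking genes. The 23 that lost it include Nes, Tns1, Kdm6b, Kmt5c, Igsf9b, Serpinh1, Mest and Syne3. In Homecage mice, 57 of the 64 had a regional value, and 44 of these 57 were lower in ventral than in dorsal hippocampus, called or not. So were 20 of the 24 activity genes and 12 of 20 choroid plexus and tracking genes with a value. The median regional log2 fold changes of these sets were -0.29, -0.30 and -0.11, against -0.0068 over all genes. Among 2709 genes called lower in ventral than dorsal Homecage, 43 rose after Handling and none fell. Among 2532 called higher, 10 rose and 3 fell. These contrasts share the ventral Homecage libraries, and the part of the regional level in the calls was not tested.

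Only 6 genes fell. Ndn, the imprinted gene of the MAGE protein necdin, fell from 4344 to 2534, to 0.596 of the Homecage level (log2 -0.75, implied standard error 0.13, the authors' adjusted p = 1.8e-06). It was also lower after Handling in dorsal (log2 -0.73, the authors' adjusted p = 0.00027) and whole hippocampus (log2 -0.83, adjusted p = 2.9e-08). None of the other 19 measured genes on the imprinted list was called, against 0.856% of all genes called. Mest, an imprinted gene that is not on the list, was higher (log2 0.28, the authors' adjusted p = 0.0455), a call lost after the GC trend was subtracted. Necab1, a neuronal calcium-binding protein, fell from 3130.0 to 2382 (log2 -0.34, the authors' adjusted p = 0.0191), and Tfrc, the transferrin receptor, from 2669 to 2191 (log2 -0.24, adjusted p = 0.0133). Both calls were lost after the GC trend was subtracted. Against the same Homecage libraries, Necab1 was also lower after ventral Restraint (log2 -0.46) and Swim (-0.37). Tfrc was too, at -0.25 and -0.24. In dorsal Handling the log2 fold changes were 0.02 for Necab1 and -0.14 for Tfrc, neither called.

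The germ cell gene Tdrd1 fell from 47.4 to 25.1 (log2 -0.86, the authors' adjusted p = 0.0275). Gm9797, a predicted gene, fell from 125 to 59.3 (log2 -1.0, the authors' adjusted p = 0.0126). Pgk1-rs7, a copy related to Pgk1, fell from 70.2 to 40.0 (log2 -0.78, the authors' adjusted p = 0.050), at the threshold itself. Gm9797 and Pgk1-rs7 are uncertain, since reads can be shared with near-identical copies.

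Dorsal Handling was the closest comparison. There 17 of 13610 genes were called (0.125%), and in whole hippocampus 54 of 13668 (0.395%). The difference between the ventral and dorsal log2 fold changes was tested for 13500 genes with the implied errors, a two-sided normal p and Benjamini-Hochberg adjustment. It passed an adjusted p of 0.05 for 12 genes (0.0889%), all higher in the ventral table, and 336 had an unadjusted p under 0.05. With group means only, no exact test could be made; a normal approximation over 5 libraries a group can make such p-values too small, so each difference is given with its standard error and without its own p. Of 102 called ventral genes tested, 11 differed, and 8 of those 11 were choroid plexus or tracking genes. Of the 81 other called genes tested, counting activity genes, 3 differed: Col9a3, Col4a4 and Slc4a2, the last not after the GC trend was subtracted in both tables. Of these 81, 67 rose with a higher log2 fold change in ventral than in dorsal hippocampus. The 81 were chosen by their ventral call, so this count is a description. Fold change also followed GC content in opposite directions, with Spearman's rho of 0.43 in the ventral and -0.33 in the dorsal table. The part of GC content in this count was not tested.

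No activity-list gene differed between the poles by this test. Fos had a log2 fold change of 2.02 in ventral and 1.68 in dorsal hippocampus, Egr2 one of 2.69 and 2.96, and Arc one of 1.27 and 1.14. Egr3 (0.52 and 0.08), Egr4 (1.39 and 0.56) and Junb (1.24 and 0.62) were called in ventral hippocampus and had an adjusted p of at least 0.9996 in the dorsal table. Their differences did not pass either, so a difference between the poles was not shown for them. In dorsal Handling the level of Fos rose from 5.66 to 18.4 CPM, and in ventral Handling from 5.55 to 22.6.

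The genes that differed by pole were led by Col9a3, whose log2 fold change was 1.43 in ventral and -0.24 in dorsal hippocampus (difference 1.67, standard error 0.31). Mfrp differed by 4.06 (standard error 0.81), Ttr by 4.30 (standard error 0.97) and F5 by 3.63 (standard error 0.78). Kl differed by 1.59 (standard error 0.33). Ttr, F5 and Kl are choroid plexus markers and Mfrp is a tracking gene. The part of choroid plexus in these differences was not tested. Col9a3 itself stood at 19.5 CPM in ventral Handling and 18.99 in dorsal Restraint, against 7.17 to 12.7 in the other groups. With markers and tracking genes left out and p-values adjusted again, Col9a3 alone remained.

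**Figure D4:**
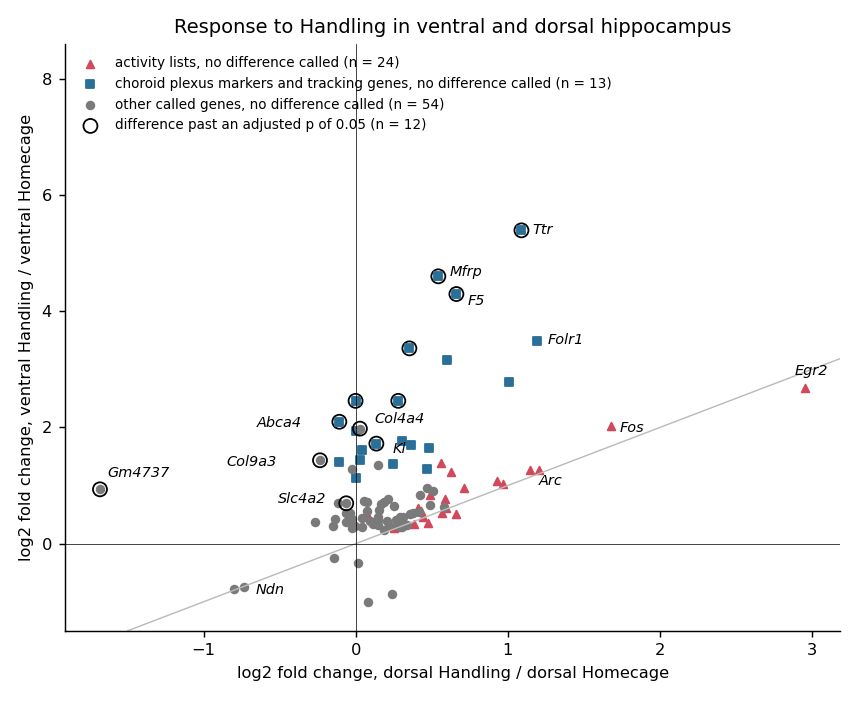
Log2 fold change after Handling in dorsal (x axis) against ventral hippocampus (y axis) for the called ventral genes held in both tables, plus Gm4737; the grey diagonal marks equal values, and rings mark the 12 genes whose difference passed an adjusted p of 0.05. Among activity genes, Fos (1.68 and 2.02) lies near the diagonal, Egr2 (2.96 and 2.69) below it and Egr4 (0.56 and 1.39) above it. Choroid plexus genes such as Ttr (1.09 and 5.39) lie far above it.

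The other ventral treatments share the Homecage libraries with Handling, so the error used for these differences is an upper bound. After Restraint, 329 of 13748 genes were called (2.39%), and after Swim 955 of 13758 (6.94%). Of 13702 genes tested, 19 differed between Handling and Restraint (0.139%): 15 (0.109%) were higher after Handling, all of them choroid plexus or tracking genes, and 4 (0.0292%) were lower. Of 13711 genes tested against Swim, 16 differed (0.117%), 14 higher (0.102%) and 2 lower (0.0146%) after Handling.

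The genes lower after Handling than after Restraint were of another kind. Apold1, an immediate early gene of endothelial cells, had a log2 fold change of 0.62 after Handling (52.6 to 79.4, the authors' adjusted p = 0.0460), 2.76 after Restraint and 1.77 after Swim. It differed from Restraint by -2.14 (standard error 0.28) and from Swim by -1.15 (standard error 0.24). It was the only one of 16 endothelial markers called after Handling. Cyr61 differed from Restraint by -1.36 (standard error 0.26), Btg2 by -0.59 (standard error 0.13) and Sgk1 by -0.49 (standard error 0.11).

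Against Swim, Txnip, a thioredoxin inhibitor and glucocorticoid target, differed by -0.55 (standard error 0.12). The splicing kinases Clk1 and Clk4 differed by 0.58 and 0.43 with log2 fold changes of 0.11 and 0.16 after Handling, neither called, and of -0.47 and -0.27 after Swim. Zkscan3 differed by 0.38 (standard error 0.092). The differences of Clk4, Zkscan3 and the choroid plexus gene Sostdc1 did not pass once the GC trend was subtracted in both tables. The other 11 genes higher than after Swim were choroid plexus or tracking genes.

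Of 69 genes on the activity lists, 2 (Btg2 and Cyr61) differed between Handling and Restraint and none between Handling and Swim; a difference that did not pass does not show that the genes responded alike. The log2 fold change of Fos was 2.02 after Handling, 2.01 after Restraint and 2.06 after Swim, and that of Nr4a1 was 1.02, 0.94 and 1.12. Egr1 had values of 1.07, 0.75 and 0.99, and Arc 1.27, 0.93 and 1.03. Npas4 had 0.62 after Handling, 1.23 after Restraint and 0.77 after Swim, and Dusp1 had 0.53, 0.98 and 0.79. Hes5, a repressor switched on by Notch receptors in neural progenitors, had a log2 fold change of -0.29 after Handling (188 to 148, the authors' adjusted p = 0.849), -1.09 after Restraint and -1.19 after Swim. None of 18 Notch pathway genes was called after Handling, which at 0.856% of all genes called is not a result about them.

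Other marker lists gave values near the background of calls (0.856% of all genes): of the 186 measured members of the 18 lists other than choroid plexus, 1 was called, so the lack of calls is not a result about these cell types. None of 8 ependymal, 13 meningeal, 5 blood cell, 9 mural, 12 astrocyte, 12 microglial or 12 oligodendrocyte markers was called. All 8 ependymal markers had log2 fold changes above 0, from 0.066 to 0.50, with a median of 0.12 and a summed level of 21.6 and 26.5 CPM in Homecage and Handling. Foxj1, the master factor of motile cilia, had means of 149 and 206 (log2 0.49, the authors' adjusted p = 0.377). None of 28 cilium and axoneme genes was called either, with a median of 0.15. Meningeal markers had a median of -0.23 and a summed level of 203 and 203 CPM. Blood cell markers had a median of -0.47 and a summed level of 236 and 179.

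Neuronal markers showed no call. None of 9 markers of CA1 pyramidal cells, 10 of CA2 and CA3, 12 of dentate granule cells or 12 of interneurons passed, with medians from -0.092 to 0.16. No call was made either for 10 markers of oligodendrocyte precursors, 11 of ventral and 8 of dorsal hippocampus, and, for neighbouring tissue, 7 of thalamus, 12 of neocortex and 8 of amygdala and subiculum. None of 8 prostaglandin and cytokine genes was called. With 0.856% of all genes called, the lack of calls in this list and in those below is not a result about them. Of 20 neuropeptide genes none was called, and Vgf, a neuropeptide precursor, had means of 2558 and 3058 (log2 0.29, the authors' adjusted p = 0.633). All 13 mitochondrially encoded genes had log2 fold changes below 0, from -0.34 to -0.15, with no call and a summed level of 62579 and 55045 CPM. The 26 nuclear genes of the respiratory chain had a median of -0.019, and 30 ribosomal protein genes one of -0.020.

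**Figure D5:**
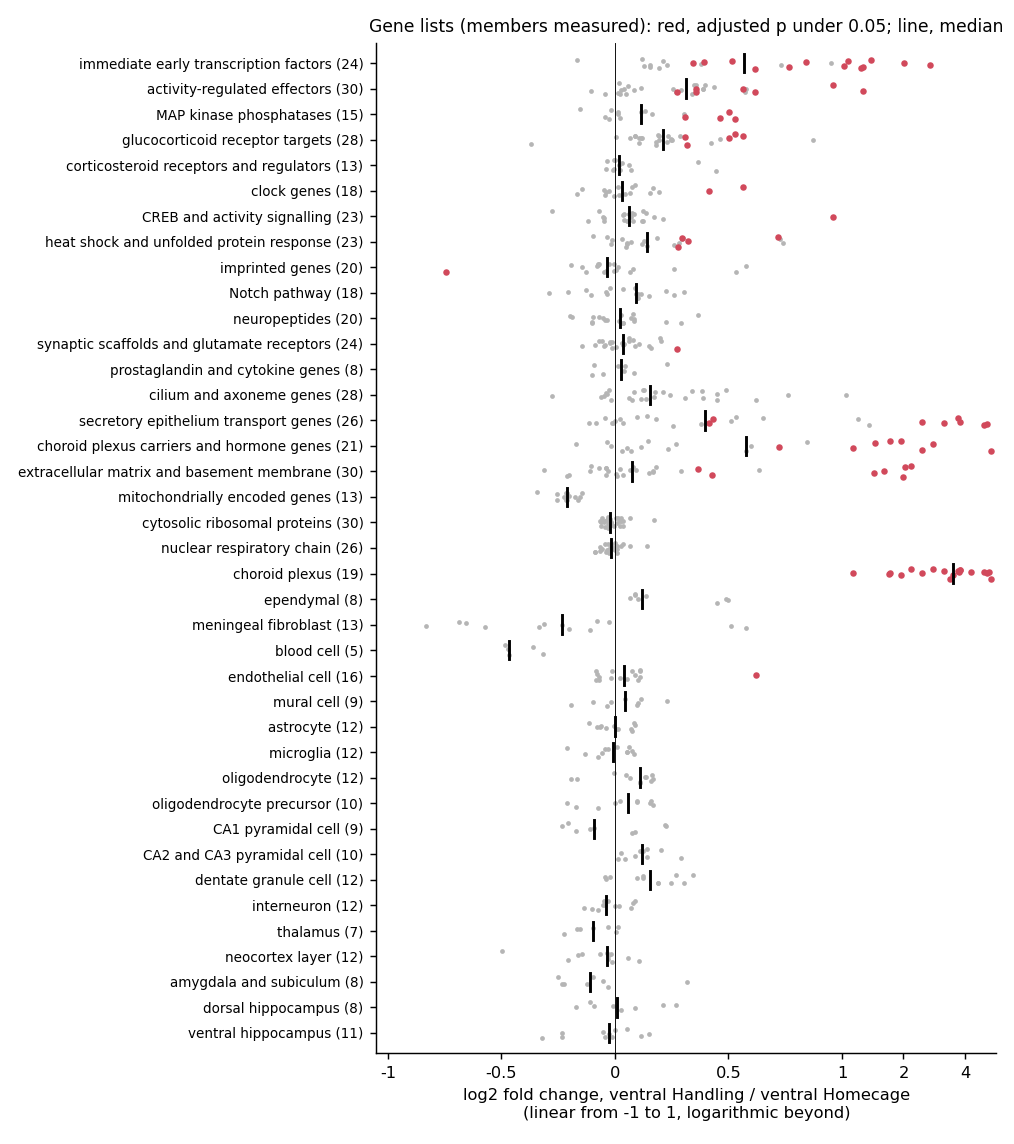
Log2 fold change after Handling (x axis, linear from -1 to 1 and logarithmic beyond) of the measured members of 39 gene lists (rows); red points passed an adjusted p of 0.05 and black bars are medians. All 19 choroid plexus markers are red, as are 13 of 24 immediate early transcription factors, while the medians of the other 18 marker lists lie between -0.47 and 0.16.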

How the data were processed

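Poly(A)-enriched libraries were made with the Illumina TruSeq kit and sequenced on a HiSeq4000, per the labels' protocols. Per the file headers, the authors deposited, for each comparison, group means of estimated counts, a fold change (a ratio after the authors' scaling), its log2 value, a p-value and an adjusted p. Bowtie 0.12.2 and mm8 are listed in the submitters' processing notes, with no step named; aligner, counting program and test were not given in the sources used here. After 144 repeated entries were dropped, 13784 genes remained, and a Benjamini-Hochberg adjustment recomputed from the deposited p matched the deposited one. Since group means alone were held, the deposited adjusted p was used instead of a count model. Differences between tables were computed as stated in the report with Python 3.11.15, pandas 2.3.3 and scipy 1.17.1. The computation was run on simulated effects with normal errors of the implied size. That run checks the arithmetic and cannot tell whether the normal approximation suits these libraries. GC content and length came from GENCODE M21 transcripts, and lowess trends (statsmodels 0.14.6, fraction 0.3) were subtracted as alternatives. The members and the 39 lists, 20 of pathways and 19 of markers, were chosen with earlier results of these data known. Genes were named by a written rule: called genes, list members and tested differences with the lowest p, and a fixed set including Fos, Nr3c1 and Ttr. Members quoted for a region or as examples of lost calls, and Slc13a4, were chosen after their values were seen. Restrictions of lists to members held in all tables, or without choroid plexus genes, were chosen after seeing the data. Depth per library was not analysed here.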

Additional observations from a re-analysis of the deposited data

Results flagged for a closer look

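The response to Handling differed between ventral and dorsal hippocampus, by the test of the difference, for 12 genes. The ventral minus dorsal log2 difference was 4.30 for Ttr, 4.06 for Mfrp, 3.63 for F5, 3.01 for 1500015O10Rik, 2.46 for Trpv4, 2.21 for Abca4, 2.18 for Enpp2 and 1.59 for Kl, all choroid plexus markers or tracking genes. It was 1.95 for Col4a4, 1.67 for Col9a3 and 0.76 for Slc4a2. With the GC trend subtracted in both tables, the difference of Slc4a2 was 0.62 and did not pass, while those of the other 11 genes still passed. The predicted gene Gm4737 differed by 2.62 (standard error 0.61), but it was called in neither table, with a log2 fold change of 0.93 in ventral (the authors' adjusted p = 0.415) and -1.68 in dorsal hippocampus.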

How the results depend on the processing

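At a deposited adjusted p of 0.01, 71 genes were called, 70 higher and 1 lower; at 0.1, 11 were lower. With choroid plexus markers and tracking genes left out and p adjusted again, 76 were called, 71 of them higher, and the ventral minus dorsal difference was called for 1 gene, higher in ventral. The remaining counts over all genes stayed within 1.5 times: 103 calls with a mean of at least 50, 119 under scaling by group totals, 115 after median centring, 113 after subtracting a length trend, and 94 after subtracting the GC trend, of which 91 were shared with the 118. Of the 118 called genes, 27 lost their call after the GC correction, 5 after the length correction, 3 after centring and 1 under total scaling. No direction reversed among them. No paired analysis was possible because the tables hold group means only; for the same reason a count model, a replicate block and leaving out single libraries were not run.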
